A study of Mus musculus with 9 samples.

Results

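Vascular endothelial growth factor (VEGF) signalling was examined through 9 genes: the receptors Flt1, Kdr and Flt4, the ligands Vegfb, Vegfc, Figf and Pgf, and the secreted factors Ccbe1 and Egfl7. They were taken by symbol from the table of 45808 gene symbols, and all 9 were found. Flt1 and Ccbe1 had been picked because their RNA was higher in the mutant, so these 2 were chosen by their level in F7 against control in these same libraries. Their values are given as a description, without a test. The others were taken for their place in the pathway.

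The RNA sequenced came from mK4, an established mouse cell line of kidney mesenchyme from the embryo, grown with 10% serum. The 5 control libraries came from Foxd2 wildtype cells that went through Cas9 targeting with a guide that has no target. The 4 mutant libraries came from the single clone F7, whose Foxd2 alleles both carry a frameshift. With 1 clone sequenced, the effect of the genotype and the history of that clone cannot be told apart, and the labels do not say whether libraries of a group were separate cultures, which means that each p-value reflects library-to-library spread that may be technical.

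VEGF ligands are secreted dimers that bind receptor tyrosine kinases of the same family. VEGF-A acts mainly through Kdr, the principal signalling receptor of blood vessel endothelium. Flt1 binds VEGF-A, VEGF-B (Vegfb) and placental growth factor (Pgf) tightly, signals weakly, and is also made as a soluble decoy. VEGF-C (Vegfc) and VEGF-D (named Figf in the table, Vegfd in current annotation) act on Flt4, the receptor of lymphatic endothelium, after proteases have trimmed them. Ccbe1 is a matrix protein that helps the protease Adamts3 to process VEGF-C, and Egfl7 is a secreted protein best known from endothelium. In the developing kidney, epithelial and mesenchymal cells produce VEGF ligands and neighbouring endothelium carries most of the receptors.

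Library totals ran from 6041556 to 16032175 counts, and F7 replicates 3 and 4 were the shallowest. The raw headers of F7 replicates 3 and 4 also differ from the others, reading mk3 in place of mk4. Of the variance, 64.8% lay on the first principal component, which set F7 apart from control, with control replicates 3 and 5 nearest to F7. Foxd2, the targeted gene and a forkhead transcription factor, measured 4.28, 3.19, 4.07, 3.99 and 3.12 CPM (reads scaled to library size) in control replicates 1 to 5 and 18.8, 23.32, 16.47 and 14.53 CPM in F7 replicates 1 to 4. Its RNA was thus higher in the clone, and a frameshift cannot be seen in gene-level counts. Of 16 kidney mesenchyme markers, 7 passed the filter on low counts. By edgeR's quasi-likelihood test, at a Benjamini-Hochberg adjusted p under 0.05 over all tested genes, Pax2 and Sall1 fell in F7. The other 5 were not called, so 28.6% of the tested markers were called, against 35.3% of all tested genes. Wt1, Six2, Hoxd11 and Tcf21 had no read in any library. Sall1 lies on chromosome 8, where the median log2 fold change of tested genes was -0.35.

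Of the VEGF receptors, Flt1 was abundant enough to test, whereas Kdr and Flt4 were at or near 0 in every library. Flt1 (ENSMUSG00000029648.13) lies on the minus strand of mm10 chromosome 5, from 147561604 to 147726011. It had 96, 71, 151, 135 and 197 reads in control replicates 1 to 5, and 1221, 1053, 451 and 408 reads in F7 replicates 1 to 4. Scaled to depth these are 5.79, 5.26, 12.5, 12.5 and 16.6 CPM in control and 89.3, 90.3, 75.8 and 62.4 CPM in F7. Every F7 library lay far above every control library.

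The Flt1 mean was 10.5 ± 4.88 CPM in control (SD, n = 5) and 79.5 ± 13.2 CPM in F7 (SD, n = 4). The fitted log2 fold change was 2.95 (SE 0.31), or 7.72-fold. This was the 63rd highest of the 14730 fitted log2 fold changes. The controls varied among themselves: replicate 5 held 3.16 times the level of replicate 2, and the coefficient of variation was 46.3%, against 16.6% among the F7 libraries. Replicates 1 and 2 of control averaged 5.53 CPM and replicates 3 to 5 averaged 13.9 CPM. In F7, replicates 1 and 2 averaged 89.8 CPM and the shallower replicates 3 and 4 averaged 69.1 CPM. Counts per gene do not separate the membrane form of Flt1 from its soluble form.

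The 250 bases that precede the RefSeq start of Flt1, Vegfc and Figf are shown because these genes give the largest receptor difference, the ligand read in F7 libraries alone, and the most abundant ligand of the family. They come from RefSeq with build GRCm38.p6 and are written 5′ to 3′ on the strand of the gene. Capitals mark a cAMP response element (TGACGTCA) and a TATA box (TATAAA).
Flt1 chr5:147726012-147726261, minus strand: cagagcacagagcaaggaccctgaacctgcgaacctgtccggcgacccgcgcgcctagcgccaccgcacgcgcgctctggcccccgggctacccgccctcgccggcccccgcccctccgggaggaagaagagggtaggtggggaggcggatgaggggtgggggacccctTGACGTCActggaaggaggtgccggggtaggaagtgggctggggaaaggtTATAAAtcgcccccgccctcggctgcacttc
Vegfc chr8:54077282-54077531, plus strand: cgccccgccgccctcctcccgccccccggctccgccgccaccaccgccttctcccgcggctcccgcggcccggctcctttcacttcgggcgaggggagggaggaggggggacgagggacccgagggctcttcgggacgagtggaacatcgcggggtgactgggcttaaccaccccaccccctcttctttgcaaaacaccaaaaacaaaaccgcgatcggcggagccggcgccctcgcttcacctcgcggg
Figf chrX:164373272-164373521, plus strand: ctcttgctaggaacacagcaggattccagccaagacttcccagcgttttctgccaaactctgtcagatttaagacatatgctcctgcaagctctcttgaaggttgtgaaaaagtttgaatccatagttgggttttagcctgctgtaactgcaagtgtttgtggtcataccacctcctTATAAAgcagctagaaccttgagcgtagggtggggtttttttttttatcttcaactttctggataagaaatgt
The search, on both strands, also covered the forkhead core TGTTTAC, the hypoxia response core ACGTG and the ETS core CCGGAA. No matches overlapped in these windows.

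The Flt1 window held the cAMP response element 81 to 74 bases before the start and the TATA box 31 to 26 bases before it, a usual place for a TATA box. It was rich in CpG, with 23 CpG and 70.4% G and C. The Vegfc window held 30 CpG and 71.6% G and C and matched none of the 5 motifs. The Figf window differed from both, with 2 CpG, 42.4% G and C, and a TATA box 73 to 68 bases before the start. The GENCODE start of Figf, 164373378, differs from the RefSeq start and lies inside this window. By that start the TATA box falls within the gene. The GENCODE start of Vegfc, 54077606, also differs from the RefSeq start and lies downstream of the end of its window, 54077531. Over all 32851 windows of this length the median was 6 CpG. The cAMP response element was found in 1.55% of them, the TATA box in 12.4%, the forkhead core in 3.17%, the hypoxia core in 16.6% and the ETS core in 12.0%. The forkhead, hypoxia and ETS cores were found in none of the 3 windows shown. A match is a description of the letters and not a bound site.

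Kdr (ENSMUSG00000062960.10; chromosome 5, 75932827 to 75978458, minus strand) had 1 read in control replicate 2 and 0 reads in each of the other 8 libraries. A count of 0 over the F7 group allows a level of up to 0.0793 CPM, taken as 3 counts over the summed depth. Flt4 (ENSMUSG00000020357.3; chromosome 11, 49609263 to 49652739, plus strand) had 0 reads in all 9 libraries, which allows up to 0.0463 CPM in control and 0.0793 CPM in F7. Such floors cover counting error only. Neither gene passed the filter, and at this depth no difference was detectable for either. The main signalling receptors for VEGF-A and for VEGF-C and VEGF-D were therefore not measurable in mK4 cells of either genotype, while Flt1 was.

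**Figure D1:**
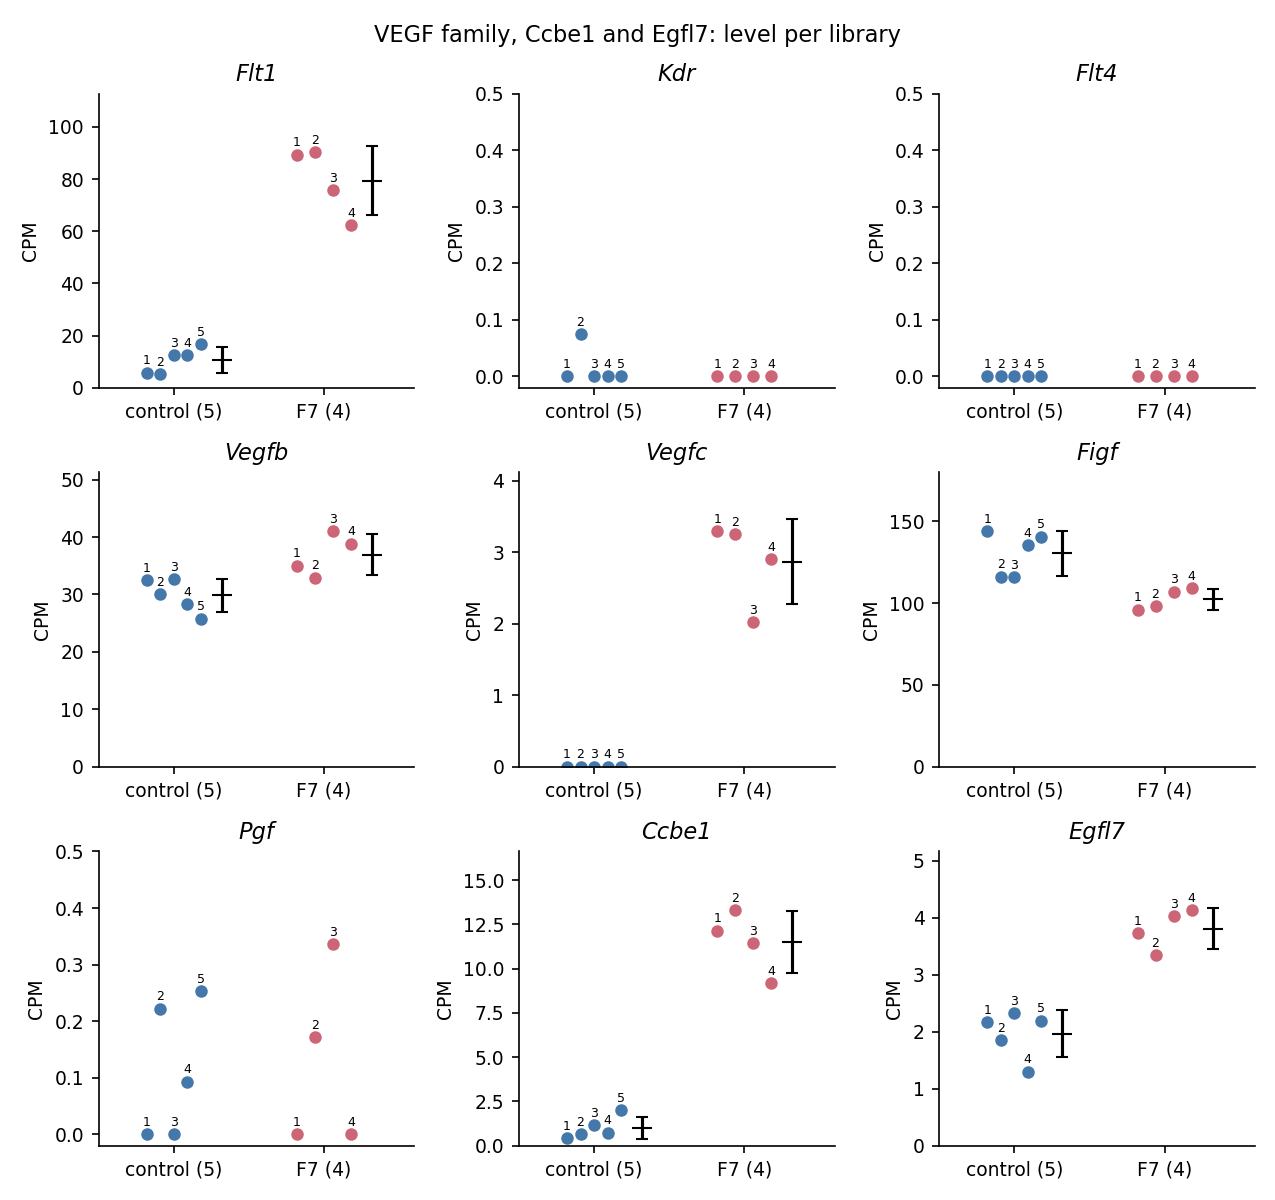
Level of each of the 9 genes in CPM (linear axis from 0) in the 5 control and 4 F7 libraries, 1 panel per gene with its own scale. Points are libraries with their replicate numbers, and the black mark is the mean ± SD, drawn where every library of the group had a read. Flt1, Vegfc, Ccbe1, Egfl7 and Vegfb lie higher in every F7 library than in any control, Figf lies lower, and Kdr, Flt4 and Pgf stay at or near 0.

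Among the ligands, Figf was the most abundant in both groups and was lower in F7, Vegfb was slightly higher, and Vegfc appeared in F7 libraries alone. Figf (ENSMUSG00000031380.10; chromosome X, 164373378 to 164402650, plus strand) measured 144, 116, 116, 135 and 141 CPM in control and 95.9, 97.9, 107 and 109 CPM in F7. Every F7 library lay below every control library, with the 2 lowest controls at 115.6 and 116.1 CPM and the highest F7 library at 108.9 CPM. The mean was 130 ± 13.5 CPM in control (SD, n = 5) and fell to 102 ± 6.45 CPM in F7 (SD, n = 4), -0.35 on the log2 scale (SE 0.08, adjusted p = 0.00455 by edgeR). With the mutant group cut to replicates 3 and 4 it was -0.27 and was not called (edgeR adjusted p = 0.112).

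Vegfb (ENSMUSG00000024962.13; chromosome 19, 6982473 to 6987651, minus strand) measured 32.5, 30.1, 32.6, 28.3 and 25.8 CPM in control. In F7 it measured 35.0, 32.9, 41.0 and 38.9 CPM. The groups did not overlap, but the lowest F7 library (32.92 CPM) was close to the highest control (32.61 CPM). The mean was 29.9 ± 2.90 CPM in control (SD, n = 5) and rose to 37.0 ± 3.65 CPM in F7 (SD, n = 4), 0.30 on the log2 scale (SE 0.09, adjusted p = 0.0230 by edgeR). This small difference rested on F7 replicates 3 and 4, which averaged 39.9 CPM, whereas replicates 1 and 2 averaged 34.0 CPM. With F7 replicates 1 and 2 alone it was 0.19 (edgeR adjusted p = 0.198), and the call was also lost without control replicate 4 (0.0545), F7 replicate 3 (0.0671) or F7 replicate 4 (0.0592).

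Vegfc (ENSMUSG00000031520.6; chromosome 8, 54077606 to 54187096, plus strand) had 0 reads in all 5 control libraries and 45, 38, 12 and 19 reads in F7 replicates 1 to 4. The F7 libraries measured 3.29, 3.26, 2.02 and 2.91 CPM, a mean of 2.87 ± 0.594 CPM (SD, n = 4). All 4 mutant libraries thus carried reads and no control did. With the F7 reads pooled over their summed depth and set against a floor of 3 counts over the summed control depth, Vegfc was at least 65.1-fold higher in F7. The gene passed the filter on low counts through the F7 libraries alone, so no p is given for it.

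Vegfc was higher in F7 while the median gene of its chromosome was lower. The 754 other tested genes of chromosome 8 had a median log2 fold change of -0.35, and 67.0% of them were called. Of the 3 nearest tested genes on each side of Vegfc, Spcs3, a signal peptidase subunit, fell by 1.07 on the log2 scale, Cep44, a centrosomal protein, by 0.51 and Fbxo8, an F-box protein, by 0.40. The noncoding gene Gm25813 rose by 0.88, and Aga (-0.15) and Neil3 (-0.06) were not called.

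Pgf (ENSMUSG00000004791.7; chromosome 12, 85166635 to 85177790, minus strand) had 0, 3, 0, 1 and 3 reads in control and 0, 2, 2 and 0 reads in F7. The groups overlapped, the gene did not pass the filter, and 7 against 4 reads gives no detectable difference at this depth.

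Ccbe1 RNA was low in control cells and clearly present in F7, and Egfl7 was low in both and higher in F7. Ccbe1 (ENSMUSG00000046318.16; chromosome 18, 66045302 to 66302741, minus strand) had 7, 9, 14, 8 and 24 reads in control and 166, 155, 68 and 60 reads in F7. In CPM these are 0.422, 0.667, 1.16, 0.743 and 2.02 in control and 12.1, 13.3, 11.4 and 9.18 in F7. Every F7 library lay well above the highest control, replicate 5.

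The Ccbe1 mean was 1.003 ± 0.629 CPM in control (SD, n = 5) and 11.5 ± 1.73 CPM in F7 (SD, n = 4). The fitted log2 fold change was 3.57 (SE 0.29), or 11.8-fold, the 40th highest of all. Without control replicates 3 and 5, the controls nearest to F7 on the first principal component, the log2 fold change was 4.28. The controls again spread widely, with replicate 5 at 4.79 times the level of replicate 1 and a coefficient of variation of 62.7%, against 15.1% in F7. Control replicates 1 and 2 averaged 0.545 CPM and replicates 3 to 5 averaged 1.31 CPM, and as with Flt1 replicates 1 and 2 were the lowest controls and replicate 5 the highest. An annotated antisense gene, Gm15958, shares exon sequence with Ccbe1 and had 0 reads in control and 2 in F7.

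Egfl7 (ENSMUSG00000026921.18; chromosome 2, 26580014 to 26593120, plus strand) had 36, 25, 28, 14 and 26 reads in control and 51, 39, 24 and 27 reads in F7. In CPM these are 2.17, 1.85, 2.32, 1.30 and 2.19 in control and 3.73, 3.34, 4.03 and 4.13 in F7. The groups did not overlap. The mean was 1.97 ± 0.411 CPM in control (SD, n = 5) and rose to 3.81 ± 0.354 CPM in F7 (SD, n = 4), 0.93 on the log2 scale (SE 0.21, adjusted p = 0.00380 by edgeR).

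The end of Egfl7 overlaps that of Agpat2, an enzyme of phospholipid synthesis on the opposite strand, and the use of strand in counting is not given in the sources used here. Agpat2 rose to 19.8 ± 0.918 CPM in F7 against 16.3 ± 1.37 CPM in control (0.28 on the log2 scale, adjusted p = 0.0234 by edgeR), and its part in the Egfl7 counts was not tested. The microRNA gene Mir126a within Egfl7, and Gm20532, which also overlaps it, had 0 reads. Both share exon sequence with Egfl7 on the same strand, and how shared reads were counted is not given. The 0 therefore says little about their RNA.

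Across all tested genes, 35.3% were called between F7 and control, 17.4% higher and 17.9% lower, and 27.6% had groups that did not overlap. Of the 9 genes, 6 passed the filter. Flt1 and Ccbe1 had been picked for their difference and Vegfc passed only through F7, which leaves 3, of which Vegfb and Egfl7 were called higher and Figf lower. With calls this common in the whole table, a count over so few genes says little about the family, and the values of each gene carry the description.

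Corrected for gene length (CPM divided by kilobases of annotated exon, RPKM), the order of levels in control was Figf 54.1 ± 5.61, Vegfb 18.6 ± 1.81, Flt1 0.781 ± 0.361, Egfl7 0.549 ± 0.115, Ccbe1 0.0926 ± 0.0581 and Pgf 0.0391 ± 0.0413 RPKM (SD, n = 5), with Kdr at 0.00164 RPKM and Flt4 and Vegfc at 0. Flt1 and Egfl7 were neighbours whose ranges of SD overlapped, as were Ccbe1 and Pgf. In F7 the order was Figf 42.5 ± 2.68, Vegfb 23.0 ± 2.27, Flt1 5.88 ± 0.974, Vegfc 1.17 ± 0.243, Egfl7 1.06 ± 0.0989, Ccbe1 1.06 ± 0.160 and Pgf 0.0437 RPKM. Vegfc, Egfl7 and Ccbe1 did not differ beyond their spread in F7. With the longest transcript as the length in place of all exons, Flt1 in F7 was 11.5 RPKM and the lower order changed to Egfl7 (2.04), Ccbe1 (1.75) and Vegfc (1.17).

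VEGF-A, the main ligand of the pathway and not among the 9 genes, was the third ligand by length-corrected level (RPKM) in both groups. Vegfa (ENSMUSG00000023951.17; chromosome 17, 46016993 to 46032369, minus strand) measured 23.1, 31.5, 27.1, 29.7 and 32.9 CPM in control and 83.3, 80.3, 56.0 and 41.0 CPM in F7. The groups did not overlap, and the F7 libraries spread 2.03-fold among themselves. The mean was 28.8 ± 3.88 CPM in control (SD, n = 5) and rose to 65.2 ± 20.2 CPM in F7 (SD, n = 4), 1.20 on the log2 scale (SE 0.20, adjusted p = 0.00118 by edgeR). It was 1.51 with F7 replicates 1 and 2 alone and 0.76 with replicates 3 and 4 alone (edgeR adjusted p = 0.00733 for the latter).

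Expressed as shares of the summed RPKM of the 5 ligands, the mixture shifted from Figf towards Vegfa. Figf made up 67.9 ± 3.12% in control (SD, n = 5) and 51.9 ± 3.55% in F7 (SD, n = 4). Vegfa made up 8.51 ± 1.36% in control and 18.5 ± 5.73% in F7, with 23.6, 23.1, 15.6 and 11.9% in F7 replicates 1 to 4. Vegfb held 23.5 ± 2.97% and 28.1 ± 2.63%, and Vegfc went from 0 to 1.43 ± 0.309%. The summed level of the ligands was 79.5 ± 4.83 RPKM in control and 82.0 ± 1.61 RPKM in F7, a difference smaller than the spread between control libraries.

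**Figure D2:**
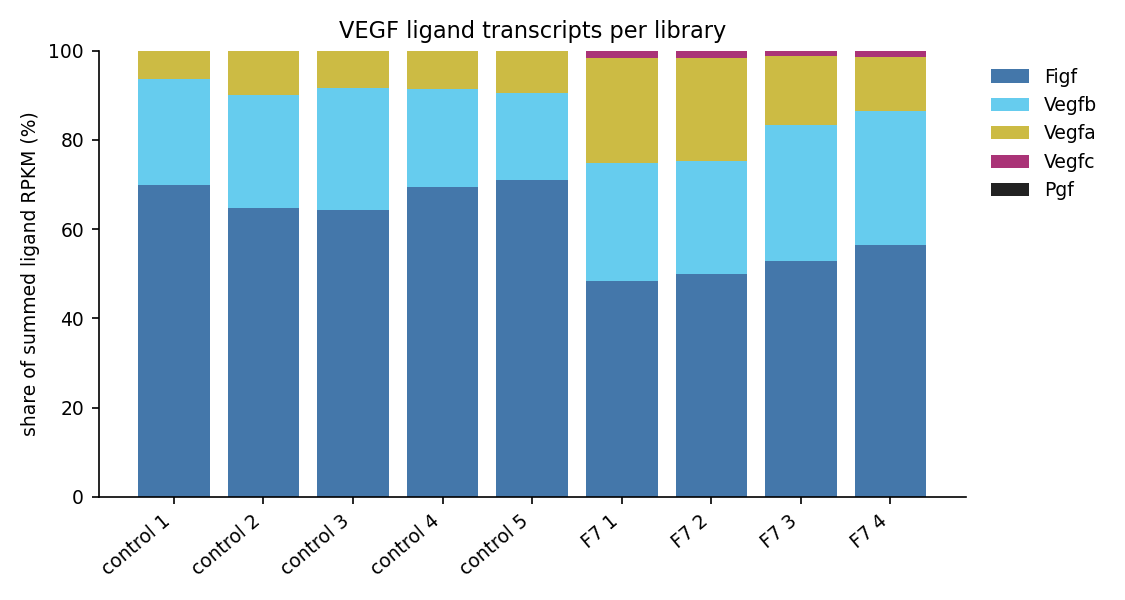
Share of each VEGF ligand in the summed RPKM (CPM per kilobase of exon) of the 5 ligands, in percent, with 1 stacked bar per library. Figf takes 67.9% on average in control and 51.9% in F7, Vegfa 8.51% and 18.5%, and Vegfc shows as a thin band in the 4 F7 bars, whereas Pgf is too low to be seen.

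The VEGF co-receptors moved in opposite directions, and the fall of Nrp2 depended on the libraries used. Nrp1, which binds VEGF-A together with Kdr, rose to 172 ± 4.77 CPM in F7 against 142 ± 12.3 CPM in control (0.27 on the log2 scale, SE 0.07, adjusted p = 0.00802 by edgeR), with every F7 library above every control. With F7 replicates 3 and 4 alone it was 0.25 and was not called (edgeR adjusted p = 0.0998). Nrp2, the co-receptor for VEGF-C and VEGF-D, fell to 246 ± 35.2 CPM in F7 against 323 ± 58.3 CPM in control (-0.39 on the log2 scale, SE 0.13, adjusted p = 0.0378 by edgeR). The Nrp2 libraries of the groups overlapped. Its call was lost without control replicate 1 (edgeR adjusted p = 0.0809), 2 (0.0677) or 4 (0.0528). It was also lost without F7 replicate 1 (0.116), 2 (0.109) or 3 (0.0514). With F7 replicates 3 and 4 alone Nrp2 was at -0.22 (edgeR adjusted p = 0.348). In all, 13 of the 23 other settings lost its call. Of the 6 genes listed for processing of VEGF-C and VEGF-D, Adamts3, the protease that Ccbe1 works with, had no read in any library, nor did Pcsk5, a proprotein convertase. Adamts14, a relative of Adamts3, rose to 7.75 ± 1.98 CPM in F7 against 3.13 ± 0.994 CPM in control (1.33 on the log2 scale, adjusted p = 0.000728 by edgeR). The proprotein convertases Furin (0.02) and Pcsk7 (-0.20) and the protease cathepsin D, Ctsd (-0.03), were not called.

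Endothelial markers were examined because Flt1, Kdr, Flt4 and Egfl7 are best known from endothelium. Of 16 endothelial markers, 12 stayed below 1 CPM in every library, and Tie1, Sox17 and Robo4 had no read at all. Cdh5, the endothelial cadherin, had 0 reads in control and 8 in F7, and Pecam1, an adhesion molecule of endothelium, had 15 and 6. The summed level of the 16 markers was 4.97 to 7.66 CPM in control and 5.49 to 8.57 CPM in F7, so the ranges overlapped. The part of endothelial cells in the Flt1 level was not tested. Of the 3 that could be tested, none was called by edgeR, DESeq2 or limma voom. Over all tested genes edgeR called 35.3%, and 3 genes are too few to set against that share. Only 1 of the 3, Mmrn2, had an unadjusted edgeR p under 0.05, and it was lower in F7 (-0.78 on the log2 scale). Without a filter on low counts edgeR called 2 of the 16 higher, where 2390 genes were called higher in all. Without control replicates 3 and 5 it called 1 of the 16 lower, where 3524 genes were called lower in all. Any call on a marker below 1 CPM rests on few reads. The lymphatic markers Prox1 and Lyve1 had no read, and Pdpn, which many mesenchymal cells also express, fell to 52.7 ± 10.0 CPM in F7 against 90.0 ± 4.34 CPM in control (-0.79 on the log2 scale, adjusted p = 9.10e-05 by edgeR). In bulk libraries, fewer cells of a type and less RNA per cell cannot be told apart.

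Genes that act below the receptors moved in both directions, with medians near that of all genes, which was -0.01. Of 42 signalling genes, 38 were tested, 10 rose, 8 fell and 20 were not called (47.4% called, against 35.3% of all tested genes), with a median log2 fold change of 0.07. Among those with the smallest adjusted p were Nfatc1, a calcium-dependent transcription factor (0.72), the stress kinase Mapkapk2 (0.43) and the kinase Mapk3 (0.36), which rose. Rcan1, an inhibitor of calcineurin that is itself induced by VEGF, fell to 24.5 ± 2.03 CPM in F7 against 62.1 ± 8.19 CPM in control (-1.36 on the log2 scale, adjusted p = 4.93e-07 by edgeR), and the adaptor Gab1 (-0.91) and the PI3-kinase subunit Pik3r1 (-0.65) also fell. Of 19 genes of receptor trafficking and dephosphorylation, 18 were tested, 4 rose and 4 fell (44.4% called), with a median of 0.06. The phosphatase Ptpn1 (0.56), the endocytic adaptor Epn1 (0.27) and the endosomal sorting protein Hgs (0.27) rose, and the motor protein Myo6 (-1.30), the small GTPase Rab4a (-0.47) and the adaptor Gipc1 (-0.25) fell. Hgs (0.21) and Gipc1 (-0.17) were not called with F7 replicates 3 and 4 alone, nor was Gipc1 (-0.21) without F7 replicate 1. Gab1, Rab4a and Gipc1 lie on chromosome 8, whose tested genes other than Vegfc had a median log2 fold change of -0.35, with 67.0% called. Nrp1, on the same chromosome, rose. The part of the chromosome-wide shift in the fall of Gab1, Rab4a and Gipc1 was not tested.

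Of 32 listed transcriptional regulators of VEGF genes, 21 were tested, 4 rose, 7 fell and 10 were not called (52.4% called), with a median log2 fold change of -0.16. The ETS factor Elk3 (0.74), the oxygen sensor Egln3 (1.19) and Foxo1 (0.35) rose, and Nr2f2 (-0.83), Hif1an (-0.55), a hydroxylase that restrains hypoxia-inducible factor, and Foxc1 (-0.44, not called with F7 replicates 1 and 2 alone) fell. Fli1, Sox7, Sox17, Sox18 and Prox1, which drive receptor genes in endothelium, had no read in any library. Of 32 other angiogenic ligands and receptors, 18 were tested, 5 rose and 8 fell (72.2% called, against 35.3% of all tested genes), with a median of -0.08. Angpt1, a ligand that steadies vessels, rose to 117 ± 23.8 CPM in F7 against 26.0 ± 3.93 CPM in control (2.16 on the log2 scale, adjusted p = 6.58e-07 by edgeR), and Pdgfrb (1.24) and Pdgfb (1.07) rose. Sema3a (-0.89), Pdgfc (-0.33, not called with F7 replicates 3 and 4 alone) and the peptide Apln (-1.66) fell.

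**Figure D3:**
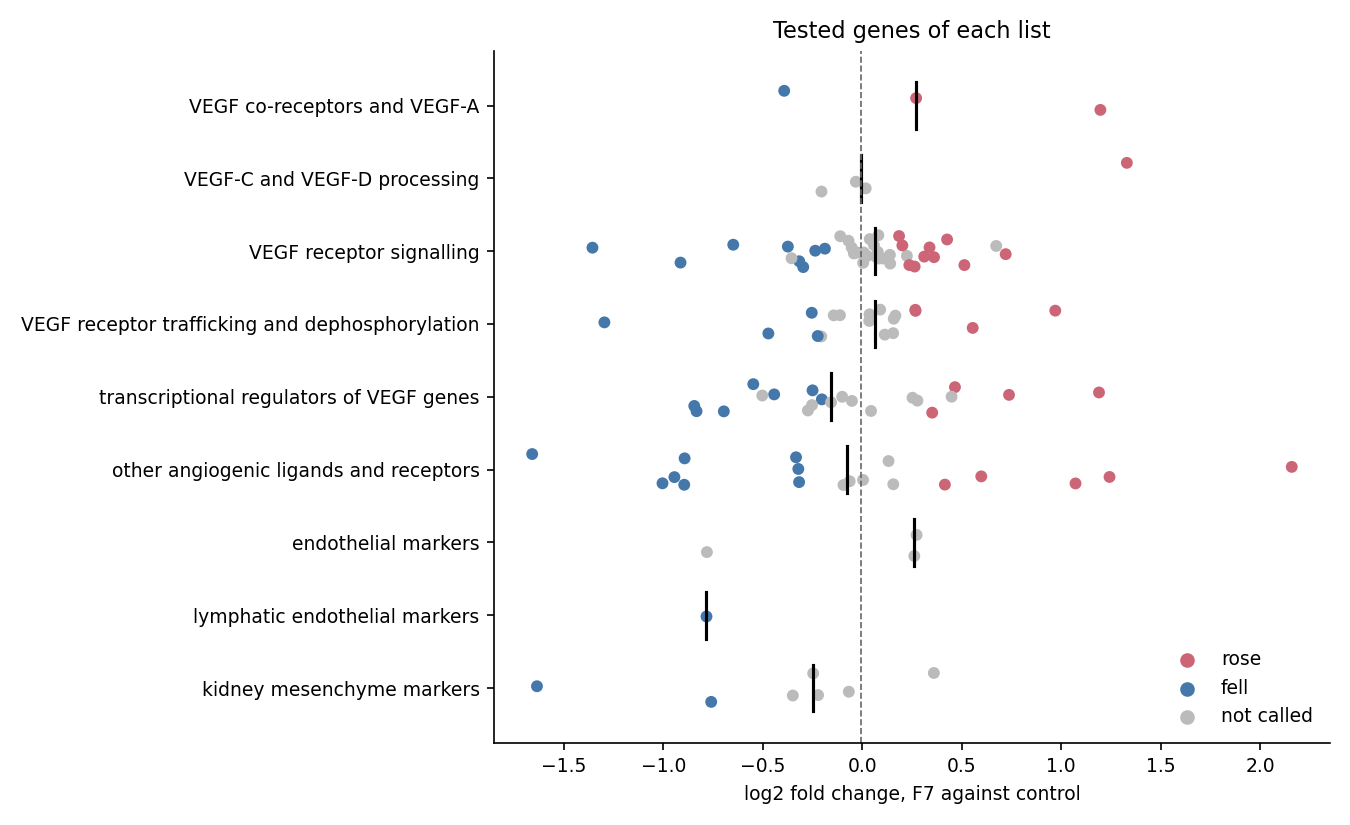
Log2 fold change of F7 against control for each tested gene of 9 lists around the VEGF pathway, 1 row per list. Points are genes, coloured by whether they rose, fell or were not called at an adjusted p under 0.05, black bars are list medians, and the dashed line is the median of all 14730 tested genes. Signalling and trafficking genes lie on both sides of the line with medians of 0.07 and 0.06.

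The tested genes beside Flt1 and Ccbe1 on their chromosomes were examined next. Since Flt1 and Ccbe1 had been picked for their difference, how far they lie above these genes is a description. The 6 nearest tested genes of Flt1 had a median log2 fold change of 0.06, and the other tested genes of chromosome 5 had a median of -0.01. Of these 6, Polr1d, a shared polymerase subunit (0.21), and Pomp, a proteasome assembly factor (0.38), rose, and the rest were not called. Over the other tested genes of chromosome 5, 33.2% were called. Around Ccbe1 the median of 6 was -0.13. There Pmaip1, a pro-apoptotic protein gene whose midpoint lies 0.288 Mb away, rose from 3.09 to 8.61 CPM (log2 fold change 1.47, edgeR adjusted p = 5.38e-05). Zfp532, a zinc finger gene, fell (-0.25), and 4 were not called. Over the other tested genes of chromosome 18, 39.6% were called.

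**Figure D4:**
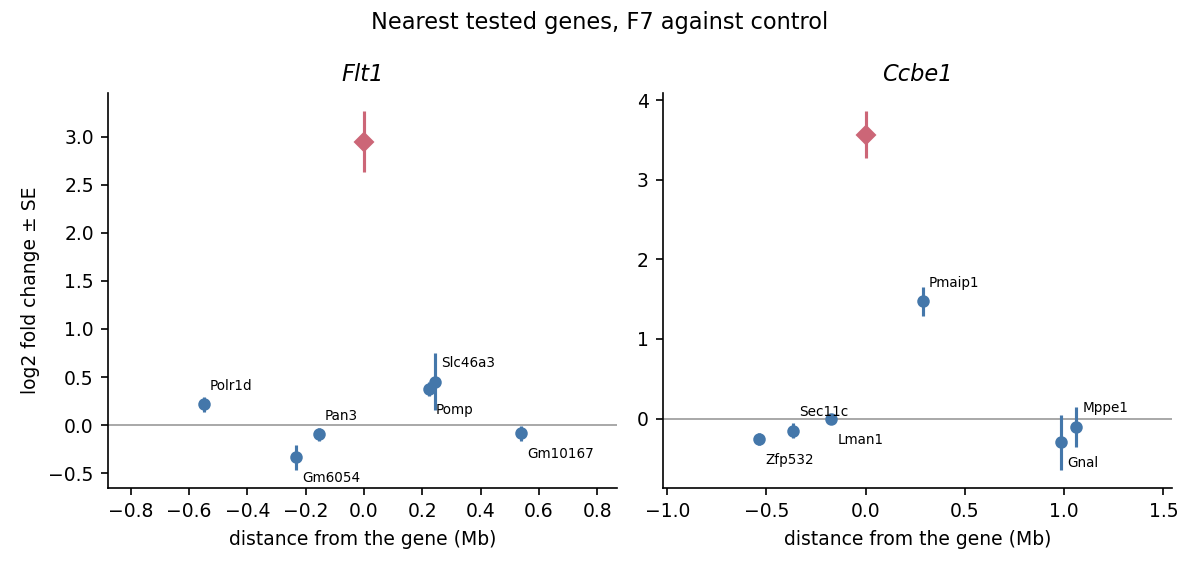
Log2 fold change of F7 against control (± SE) for Flt1 and Ccbe1 (diamonds) and the 3 nearest tested genes on each side (circles), by distance between gene midpoints in Mb. Flt1 at 2.95 and Ccbe1 at 3.57 were picked for being high, and the highest of their neighbours is Pmaip1 at 1.47.

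The genes whose log2 CPM followed each member most closely over the 9 libraries were sought among 11163 genes. These correlations hold the difference between the groups, so they describe genes with a similar step from control to F7. Flt1 and Ccbe1 were picked for that step, and Vegfc passed the filter on low counts through F7 alone. A high r with other genes higher in F7 is therefore built in for them. For Flt1 they were Abcb1b, a drug efflux pump (Pearson r = 0.995), Nfatc1 (0.993) and Dpysl3 (0.993). Dpysl3, a cytoskeletal regulator, also followed Ccbe1 (0.994), beside Aacs, an acetoacetate-activating enzyme (0.995), and Hsd17b12, an enzyme of fatty acid elongation (0.991). For Vegfc they were the sterol synthesis enzyme Cyp51 (0.997), Xdh, xanthine dehydrogenase (0.997), and Ptgs2, the inducible cyclooxygenase (0.995). Like Vegfc, Xdh had no read in control, and it averaged 3.09 CPM in F7.

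For the other members the highest r were lower. Their difference between groups was smaller against the spread among libraries, which by itself lowers r. The lower r is therefore not read as a trait of these genes. Figf was followed by Tlr3 (r = 0.982), Prkd3 (0.973) and Ubxn7 (0.969), which were all lower in F7. Egfl7 was followed by Dennd2c (0.975) and St3gal5 (0.973), and Vegfb by Atp6v1c1 (0.969), Erbb2 (0.965) and Oxld1 (0.960).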

How the data were processed

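RNA sequencing of mK4 cells (5 control, 4 F7 libraries) was analysed. Groups and replicate numbers come from the sample titles. The submitters' processing notes name mm10, featureCounts, R 3.4.3 and DESeq2 1.18.1. Neither an aligner nor an annotation, nor whether counting used strand, is given in the sources used here. Every test started from raw counts per gene symbol, as deposited by the authors. The authors' deposited signal table, counts divided by a size factor per library, served only as a check: the ratio to raw counts was constant within each library. The authors' deposited comparison (log2 fold changes and p-values) was used only as an alternative. In each of 2 tables, 1 further F7 column matches no sample and was not used. The raw headers of F7 replicates 3 and 4 read mk3 in place of mk4. They were matched by clone and replicate number, and whether the cells differ was not tested.

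The tests used edgeR 4.0.16 in R 4.3.3 (robust quasi-likelihood fit, TMM scaling), with the group as the only term. Genes were kept by filterByExpr (minimum count 10, total 15), which left 14730, and adjusted p-values are Benjamini-Hochberg over them, called under 0.05. CPM use TMM-scaled totals. Positions and exon lengths come from GENCODE M21, matched by symbol for 96.6% of tested genes, and Figf was matched as Vegfd. The procedure was tested on simulated data. The members, lists and tests were chosen with earlier results of these data known. Named were all members, Foxd2, up to 3 called genes of each list in each direction, all co-receptor and processing genes, the 3 most correlated genes of each member (1 of them is not reported here), and nearest neighbours of Flt1 and Ccbe1. The neighbours of Vegfc, the ligand shares, the read counts of other genes and 2 motifs (cAMP response element, TATA) were added after their values or sequences were seen. Alternatives were other scaling factors, filters, thresholds, DESeq2 1.42.0, limma 3.58.1 voom, the replicate number as a block, a length correction and each library left out.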

Additional observations from a re-analysis of the deposited data

Results flagged for a closer look

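Kdr in control replicate 2 stood apart from the other 4 control libraries, at 0.0741 CPM where the others were at 0. The value is a single read. A rule of this kind marks about 1 in 20 groups of continuous values by chance. That rate does not hold here, since a single read beside 0 in all other libraries of a group is always marked. No other group of libraries of the 9 genes was marked.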

How the results depend on the processing

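Over up to 23 other settings, none of the 57 called genes of the lists changed direction, and 4 kept the call in all. Leaving aside the 2 stricter thresholds, 32 of 57 kept it. Against 2561 genes called higher and 2635 lower, 988 and 1172 were called with F7 replicates 3 and 4 alone, 2022 and 2127 when only replicates 1 and 2 stood for F7, 3309 and 3524 when control replicates 3 and 5 were dropped, 1363 and 1531 at an adjusted p under 0.01, and 159 and 206 in a test against a fold of 2. The 2 stricter thresholds lower the counts by construction, and the cause of the other shifts was not tested. Over all settings the log2 fold change ran from 2.74 to 3.395 for Flt1, 3.33 to 4.28 for Ccbe1, 0.82 to 1.05 for Egfl7 and 0.19 to 0.42 for Vegfb. Egfl7 lost its call only in the test against a fold of 2, and Figf lost it there and with F7 replicates 3 and 4 alone. Vegfb, at 0.21 (edgeR adjusted p = 0.0928), was also not called after removal of the trend with length. The labels do not say whether replicate numbers pair the libraries. Deviations of same-numbered libraries correlated at -0.05, 0.07, 0.21 and -0.05 for numbers 1 to 4. Control replicates 2 and 3 correlated most with their own number in F7, and replicates 1 and 4 with number 2. Such correlations cannot settle whether the libraries were paired. With the number as a replicate block, 2510 genes were called higher and 2639 lower, and Vegfb (0.25, edgeR adjusted p = 0.0552) and Nrp2 (-0.43, 0.0646) lost their calls. Depth limits Kdr, Flt4 and Pgf, for which 3 counts in 1 library correspond to 0.181 to 0.504 CPM.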
